A study of Mus musculus with 8 samples.

Results

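The 4 MARK kinase genes (Mark1, Mark2, Mark3 and Mark4) and 5 regulators of macropinocytosis (Sdc1, Rac1, Cdc42, Pak1 and Rab34) were followed by transcript level in mouse pancreatic ductal adenocarcinoma (PDAC) cells. They were chosen by gene symbol and make up 9 of the 39179 genes in the count tables. The cells came from the iKPC genetically engineered mouse model. All 8 libraries carried a doxycycline-dependent transgene, with ROSA_rtTA, its activator, and p48-Cre, a Cre recombinase driven by a promoter of the early pancreas. On top of these, each of 4 cell lines was sequenced once with overexpressed WT-USP21 and once with overexpressed ED-USP21. USP21 is a deubiquitinating enzyme, and the labels do not spell out ED. By its background label, the strain was FVB/C57Bl6 for lines 1 and 2 but C57BL/6 for lines 3 and 4. Parental cells were not analysed here, so each comparison is of 1 construct with the other, and whether the cultures received doxycycline is not stated in the labels.

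MARK kinases (microtubule affinity regulating kinases, the mammalian relatives of the polarity kinase Par-1) phosphorylate microtubule-associated proteins such as tau, which then detach from microtubules, and they are switched on by the kinase LKB1. Macropinocytosis is the actin-driven uptake of extracellular fluid into large vesicles, and pancreatic cancer cells use it to take in protein as a source of amino acids. Published work on USP21 in this tumour names MARK3 as a protein it acts on and macropinocytosis as a process it raises. The question here was whether the transcripts of these genes differed between the constructs within a line, and between the lines. Read counts measure transcript level and say nothing of protein amount or ubiquitination.

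Library totals ran from 72828184 to 107551210 reads in genes. Usp21, the overexpressed gene, was higher with ED-USP21 in 4 of 4 lines, at 1657, 3132, 1661 and 2720.5 CPM (gene counts scaled to a common library total) for lines 1 to 4, against 147, 944, 539 and 941 CPM with WT-USP21, and it did not pass within lines (edgeR adjusted p = 0.205). Any difference between the constructs thus goes with the amount of Usp21 as well as its form. Ductal and epithelial markers were abundant (7 of 7 tested, summed level 7670.4 to 13308 CPM per library), although Epcam stayed between 0.0645 and 0.3135 CPM in lines 2 to 4 and reached 3.40 to 5.35 CPM in line 1. Markers of other cell types were lower: the fibroblast genes Dcn and Lum, the acinar genes Ptf1a and Amy2a5 and the endocrine genes Ins1, Ins2 and Gcg had 0 reads in all 8 libraries, and the leukocyte gene Ptprc lay between 0.04345 and 0.2795 CPM. Other genes of the same lists were detected, with Cd68 of the leukocyte list at 4.86 to 15.49 CPM, Cela1 of the acinar list at 2.075 to 11.23 CPM and Pdgfra of the fibroblast list at 3.35 to 5.82 CPM. The collagen genes Col1a1 and Col1a2 were highest in the WT-USP21 library of line 4 (4.796 and 5.33 CPM). Line 1 stood apart from the other lines: both of its libraries lay above or below all 6 others for 8144 of the 16192 genes tested (50.3%). For this reason values without line 1 are given where they change a result.

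Of the 9 genes, Mark3, Sdc1 and Pak1 were those whose level differed between the 4 lines, and the 250 bases upstream of an annotated start of each are shown here for that reason. They were read from a RefSeq table of build GRCm38.p6, on the plus strand in each case and 5′ to 3′. That build is later than the one used for the counts, and 7 of the 9 genes had an entry. Capitals mark matches to the GC box GGGCGG on either strand.
Mark3, chr12:111574271-111574520: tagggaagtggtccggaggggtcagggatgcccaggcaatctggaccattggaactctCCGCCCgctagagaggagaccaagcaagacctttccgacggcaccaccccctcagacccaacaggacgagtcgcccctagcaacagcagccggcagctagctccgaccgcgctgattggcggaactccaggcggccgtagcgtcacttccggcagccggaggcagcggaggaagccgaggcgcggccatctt
Sdc1, chr12:8771146-8771395: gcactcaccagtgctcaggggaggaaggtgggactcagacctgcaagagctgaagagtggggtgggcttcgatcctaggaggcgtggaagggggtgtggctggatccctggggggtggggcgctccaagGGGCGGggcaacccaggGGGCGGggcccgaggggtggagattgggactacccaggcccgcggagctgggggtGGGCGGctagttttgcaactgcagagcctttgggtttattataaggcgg
Pak1, chr7:97788291-97788540: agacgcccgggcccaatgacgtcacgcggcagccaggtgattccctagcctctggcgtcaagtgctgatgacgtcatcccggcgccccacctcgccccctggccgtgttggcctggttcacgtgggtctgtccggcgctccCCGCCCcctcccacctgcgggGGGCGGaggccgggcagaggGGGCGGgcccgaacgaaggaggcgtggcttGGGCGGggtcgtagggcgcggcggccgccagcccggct
The GC box occurred once upstream of Mark3, 3 times upstream of Sdc1 and 4 times upstream of Pak1, and 35.7% of all 32851 promoters in the table, each of 300 bases, hold at least 1. On either strand and over the same 300 bases, CCAAT occurred 2 times for Mark3 and once each for Sdc1 and Pak1 (37.4% of all promoters), and the E-box CACGTG occurred once, for Pak1 (7.15%). TATAAA (13.6% of all promoters) and the TCF/LEF core CTTTGAT (3.73%) were not among the letters of these 3 windows. CG pairs numbered 25 for Mark3, 14 for Sdc1 and 35 for Pak1, against a median of 7 over all promoters. Mark3 and Pak1 each have a further annotated start, not shown here. That of Pak1 holds 10 CG pairs, 4 GC boxes and no E-box over its 300 bases, and that of Mark3 holds 24 CG pairs. No motif contains the letters of another, and a match is a description of sequence only.

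Mark3, a kinase of Cdc25 and KSR1 as well as of microtubule-associated proteins, was the MARK gene whose level differed most clearly between lines. Its level with WT-USP21 was 133, 98.2, 87.1 and 101.6 CPM in lines 1 to 4, against 121, 86.02, 87.06 and 93.1 CPM for ED-USP21. In bulk RNA, fewer cells of a type and less RNA per cell cannot be told apart. Both libraries of line 1 were higher than the other 6, and within each line the WT-USP21 library was the higher one, although in line 3 the gap was almost nil. The log2 differences, WT-USP21 minus ED-USP21, were 0.13, 0.19, 0.0014 and 0.13. Fitted over the 4 lines with the line as a block, the log2 difference was 0.11 (SE 0.06, n = 4 lines, edgeR quasi-likelihood test, adjusted p = 0.686), so Mark3 did not pass the test between constructs.

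Mark4, a MARK kinase best known from neurons and cilia, had slightly higher values for WT-USP21 in 4 of 4 lines. It stood at 13.5, 15.4, 14.9 and 16.6 CPM with WT-USP21 and at 12.02, 14.3, 13.3 and 13.1 CPM with ED-USP21. The ranges of the constructs overlapped, since the WT-USP21 value of line 1 lay below the ED-USP21 value of line 2. Its log2 difference was 0.20 (SE 0.08, edgeR adjusted p = 0.613), with an unadjusted p of 0.0533, the smallest of the 9 genes. A higher value with WT-USP21 in 4 of 4 lines was seen for 2 of the 9 genes, Mark3 and Mark4, against 9.02% of all genes tested. The opposite order in 4 of 4 lines was seen for 0 of 9, against 7.73%.

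Mark2, a MARK kinase of epithelial polarity, was the steadiest of the family across lines. Its values were 90.7, 84.3, 89.01 and 78.8 CPM for WT-USP21 against 81.7, 93.7, 88.03 and 96.7 CPM for ED-USP21. The construct order differed from line to line: WT-USP21 was higher in lines 1 and 3 and ED-USP21 in lines 2 and 4. The fitted log2 difference was -0.07 (SE 0.08, edgeR adjusted p = 0.894). It was -0.14 without line 1 (adjusted p = 0.416) and 0.0055 without line 4. Line means spanned 86.2 to 89.01 CPM, and every pair of neighbours in that order overlapped.

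Mark1, the remaining MARK kinase, was close to absent. Its reads numbered 8, 25, 31 and 42 with WT-USP21 and 39, 17, 30 and 14 with ED-USP21 in lines 1 to 4, or 0.0869 to 0.488 CPM. In line 1 the ED-USP21 library held more (ratio of ED-USP21 to WT-USP21 4.32, 95% interval 1.99 to 10.7), and in line 4 the WT-USP21 library did (ratio of WT-USP21 to ED-USP21 2.71, 95% interval 1.45 to 5.37). These exact binomial intervals cover counting error only, in 1 library against another, and the opposite directions left a fitted value of -0.08 on the log2 scale (SE 0.58, edgeR adjusted p = 0.989). Without line 1 the log2 difference was 0.51 (adjusted p = 0.650). Over the 8 libraries, the genes of at least 5 CPM whose log2 level followed Mark1 most closely were Msh3 (Pearson r = 0.964), Smc5 (0.960) and Tsen15 (0.954), out of 10234 genes searched. The Mark1 values rest on few reads, and the libraries share their lines, so these are descriptions only.

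**Figure D1:**
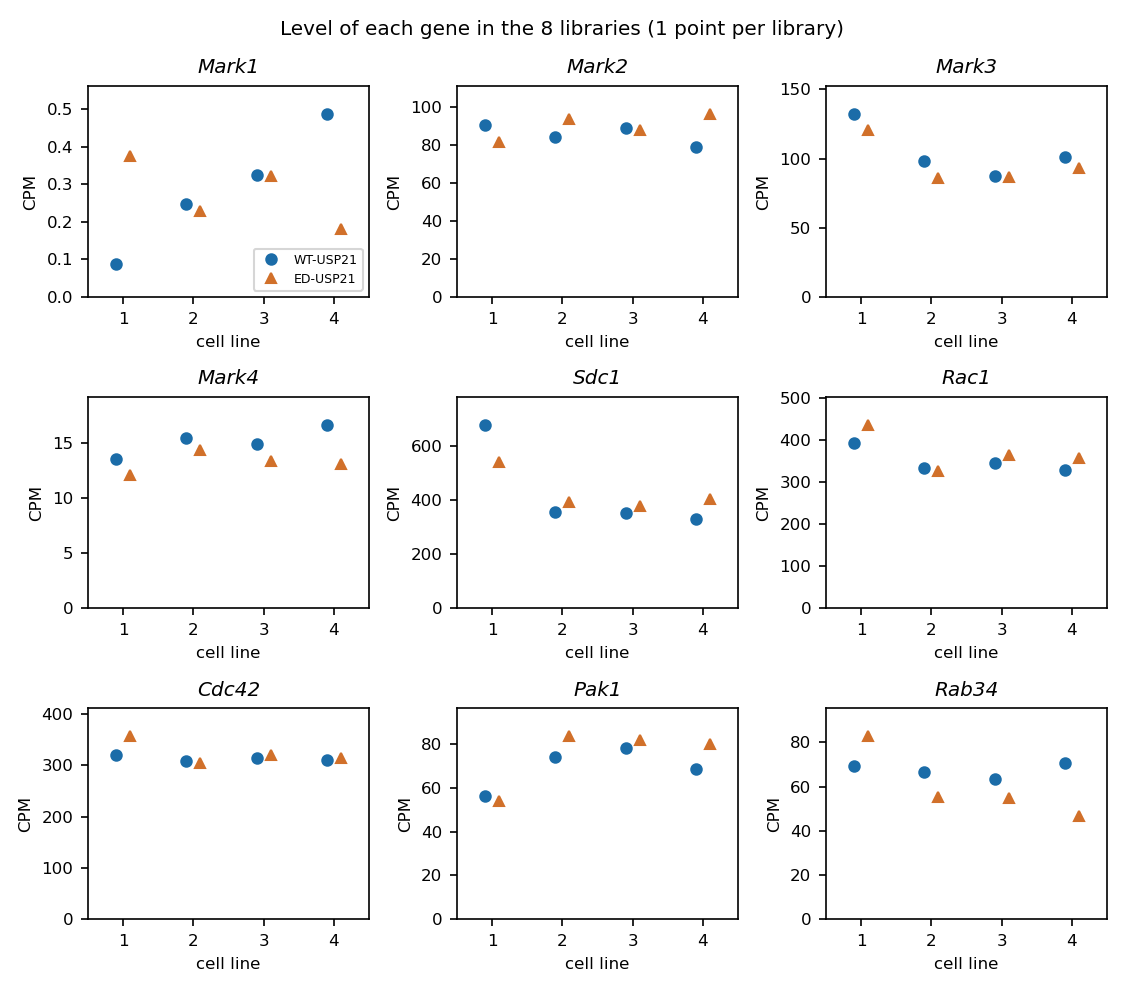
Level of the 9 genes (vertical axes, CPM from 0, each with its own scale) in cell lines 1 to 4, 1 point per library, circles for WT-USP21 and triangles for ED-USP21. Line 1 is highest for Mark3 (121 to 133 CPM) and Sdc1 (540.5 to 678 CPM) and lowest for Pak1 (54.2 to 56.2 CPM), while Mark2 and Cdc42 lie nearly flat.

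Per length of the longest annotated transcript, Mark2 and Mark3 made up most of the MARK transcript pool. Mark2 accounted for 45.9% ± 3.48 of the summed CPM per kb with WT-USP21 and 49.3% ± 4.65 with ED-USP21 (SD, n = 4 each). Mark3 accounted for 44.6% ± 4.31 and 42.2% ± 5.41, Mark4 for 9.40% ± 1.44 and 8.35% ± 0.900, and Mark1 for 0.168% ± 0.102 and 0.161% ± 0.0499. The ranges of the constructs overlapped for each of the 4 genes. In line 1 Mark3 held the larger share with both constructs (49.97% and 50.2%, against 42.7% and 42.4% for Mark2), whereas in line 3 Mark2 did (50.5% and 50.7%). In line 2 Mark2 also held the larger share with both constructs (46.6% against 43.5% with WT-USP21, 52.2% against 38.4% with ED-USP21). In line 4 Mark3 was slightly larger with WT-USP21 (45.2% against 43.8%) and Mark2 with ED-USP21 (51.8% against 40.0%). With coding length in place of transcript length Mark3 passed Mark2 in mean level, at 42.2 against 37.7 CPM per kb, so the order of these 2 depends on the length used.

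**Figure D2:**
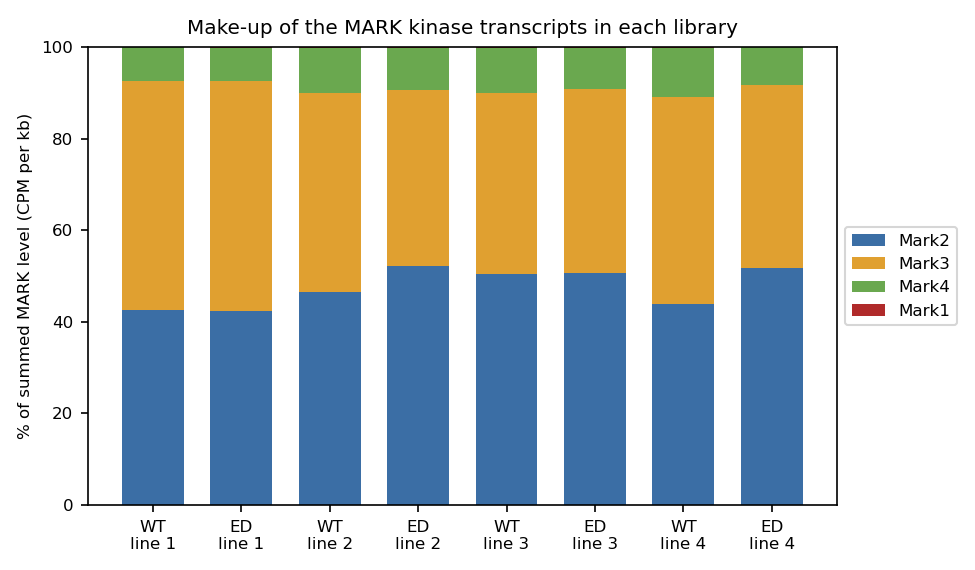
Share of each MARK gene in the summed MARK level (vertical axis, percent of CPM per kb of longest transcript) in each of the 8 libraries, ordered by line and construct. Mark2 and Mark3 fill most of each bar, Mark4 takes 7.20% to 10.7%, and Mark1, at most 0.288%, is too thin to see.

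Sdc1, a cell-surface heparan sulfate proteoglycan known to drive macropinocytosis in pancreatic cancer, had the widest gap between line 1 and the other lines. It stood at 678, 353, 353 and 328 CPM with WT-USP21 and at 540.5, 391, 376 and 405 CPM with ED-USP21. Line 1 exceeded the other lines with both constructs, and its mean of 609 CPM was 1.66 times the mean of the other 6 libraries (368 CPM). The construct order turned with the line: WT-USP21 was higher in line 1 (log2 0.33) and ED-USP21 in lines 2, 3 and 4 (log2 -0.15, -0.09 and -0.30). Over all lines the log2 difference was -0.05 (SE 0.11, edgeR adjusted p = 0.943), and without line 1 it was -0.18 (adjusted p = 0.215). The summed ductal and epithelial markers had the same order in each line, at 13308 against 11177 CPM (WT-USP21 first) for line 1, then 7855 and 8125 for line 2, 8447 and 10104 for line 3, and 7670.4 and 9094 for line 4. Krt19, Krt8, Krt7 and Cdh1 each had this order in each line, but other markers of the list did not. Krt18 was higher with WT-USP21 in line 2 (2759 against 2396 CPM) and line 4 (2845 against 2619 CPM). Epcam was reversed in lines 3 and 4, and Sox9 in lines 1, 3 and 4. The part of these markers in the Sdc1 differences was not tested.

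Rac1 and Cdc42, the small GTPases that drive membrane ruffles and protrusions, were abundant and varied little. Rac1 stood at 393, 334, 344 and 329 CPM with WT-USP21 and at 436, 326, 363 and 355 CPM with ED-USP21. It was highest in both libraries of line 1 and higher with ED-USP21 in lines 1, 3 and 4 (log2 difference over all lines -0.08, SE 0.06, edgeR adjusted p = 0.815). Cdc42 stood at 320.2, 308, 314 and 311 CPM with WT-USP21 and at 358, 305, 319.9 and 315 CPM with ED-USP21, the narrowest span of the 9 genes (1.18-fold from lowest to highest library). Its log2 difference was -0.05 (SE 0.06, adjusted p = 0.894), and without line 1 it was -0.0055, where that of Rac1 was -0.047. For Cdc42, 3.11% of the 50-base stretches of its longest transcript also occur in transcripts of other genes, among them Gm7407 and Gm12492, and for the other 8 genes this share was below 1%. Copies with mismatches were not counted in this share, and the effect of copies on the counts was not tested. Rac1 overlaps Daglb on the opposite strand, and Mark1 and Mark2 each overlap an antisense gene, whose reads cannot be told apart here, as no source used here states the strand setting. Mark3 overlaps Gm48286 on its own strand, and Cdc42 overlaps Gm25772 on the opposite one.

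Pak1, a kinase that Rac1 and Cdc42 activate at ruffles, was lowest in line 1. It stood at 56.2, 74.0, 78.2 and 68.7 CPM with WT-USP21 and at 54.2, 83.96, 81.9 and 79.9 CPM with ED-USP21. The mean of lines 2 to 4 was 1.41 times that of line 1 (77.8 against 55.2 CPM). ED-USP21 was higher in lines 2, 3 and 4 (log2 -0.18, -0.07 and -0.22) and WT-USP21 in line 1 (0.05). The log2 difference was -0.10 over all lines (SE 0.07, edgeR adjusted p = 0.765), -0.15 without line 1 (adjusted p = 0.255) and -0.065 without line 4.

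Rab34, a small GTPase that positions lysosomes and is found on macropinosomes, showed the largest construct gap in a single line among the 8 genes with ample reads. It stood at 69.4, 66.6, 63.2 and 70.7 CPM with WT-USP21, a narrow range, and at 83.1, 55.1, 54.7 and 46.7 CPM with ED-USP21. WT-USP21 was higher in lines 2, 3 and 4 (log2 0.27, 0.21 and 0.60) and lower in line 1 (-0.26). In line 4 the ratio was 1.52 (95% interval 1.45 to 1.58, counting error only). The log2 difference over all lines was 0.21 (SE 0.13, edgeR adjusted p = 0.771), and without line 1 it was 0.36 (adjusted p = 0.0734), while without line 4 it was 0.075 (adjusted p = 0.999), so the value moved by over 1.5 times either way and did not pass.

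**Figure D3:**
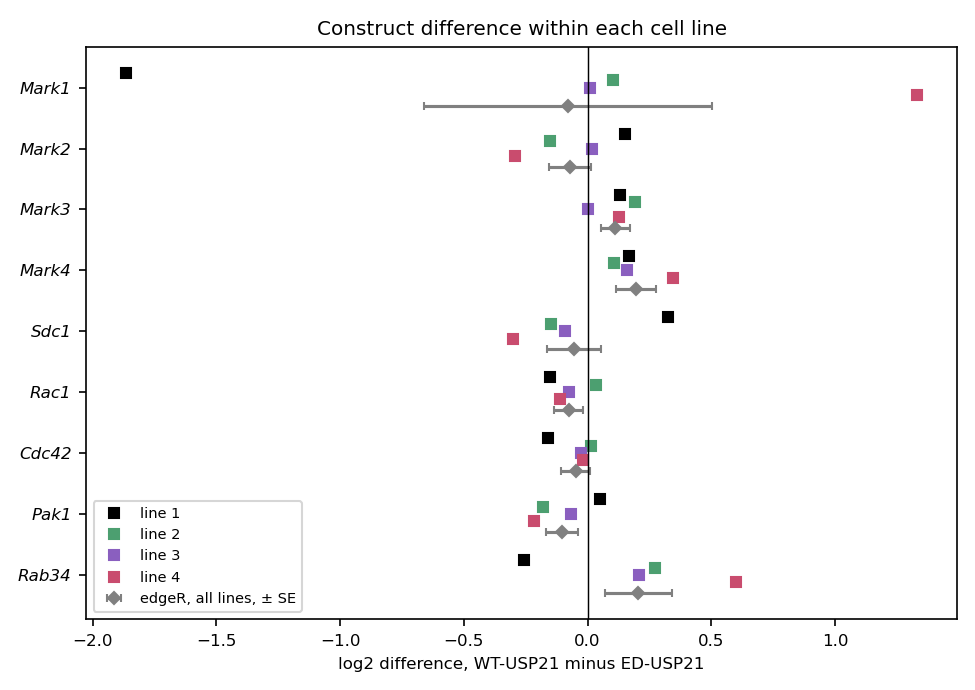
Log2 difference between constructs (horizontal axis, WT-USP21 minus ED-USP21) for each gene. Squares are the 4 lines, with 1 library of each construct, and grey diamonds with bars are the edgeR value over all lines ± SE. Mark4 lies to the right of 0 in 4 of 4 lines (0.11 to 0.35). For Mark1, Sdc1, Pak1 and Rab34, line 1 lies on the other side of 0 from lines 2 to 4.

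Between the constructs, then, 0 of the 9 genes passed in either comparison. Without the line as a block each had an edgeR adjusted p of 0.9999, 0 of 16192 genes were called (0%), and 392 genes but 0 of the 9 were at an unadjusted p under 0.05. Within lines, 4 genes of the 16192 were called (0.0247%), 1341 genes were at an unadjusted p under 0.05, and 0 of the 9 were. DESeq2 within lines called 406 genes and 0 of the 9, with Mark4 at an unadjusted p of 0.0368 (adjusted p = 0.437). Without line 1, edgeR within lines called 746 of 16326 genes (4.57%) and 0 of the 9, although Mark4, Pak1, Rab34 and Sdc1 were then at an unadjusted p under 0.05, as were 2962 of the 16326 genes. A p that misses the threshold does not show equal levels: the SE was 0.06 to 0.13 on the log2 scale for the 8 abundant genes. Of the 4 endothelial markers, summed levels were 2.35 to 7.42 CPM with WT-USP21 and 0.549 to 0.839 CPM with ED-USP21, ranges that did not overlap. Taken singly, 289 genes had construct ranges that did not overlap, where 16192 genes were tested. Kdr made up most of this in lines 2 to 4 (5.11 to 7.07 against 0.373 to 0.5375 CPM) and Cdh5 in line 1 (2.23 against 0.385 CPM), while Pecam1 stayed at or below 0.1469 CPM. Pecam1 was higher with ED-USP21 in lines 1 and 2 and Tek in lines 3 and 4, each with the opposite order in the remaining lines. The part of these markers in any construct difference was not tested.

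Whether the construct difference itself varied was tested in 2 ways. By background label (lines 1 and 2 against lines 3 and 4), the edgeR count was 0 of 16192 genes (0%). An unadjusted p under 0.05 was reached by 375 genes, DESeq2 called 7, and each of the 9 had an adjusted p of 0.990. Line 1 against lines 2 to 4, a split chosen after the data were seen, gave 1015 genes (6.27%) and 0 of the 9. Sdc1 came closest, with a log2 difference of 0.33 in line 1 against a mean of -0.18 in the others (adjusted p = 0.0752), followed by Rab34 with -0.26 against 0.36 (adjusted p = 0.101). Mark1, on few reads, had -1.87 against 0.48 (edgeR adjusted p = 0.179). The turns of direction in line 1 for Mark1, Sdc1, Pak1 and Rab34 are therefore not shown by a test.

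Levels differed between the 4 lines for 3 of the 9 genes, Mark3 (edgeR F test with the construct as a covariate, adjusted p = 0.0159), Pak1 (adjusted p = 0.0257) and Sdc1 (adjusted p = 0.0292). The same test called 4019 of 16192 genes (24.8%), so 3 of 9 is near the share of all genes. The 2 libraries of a line stood for it here, and the fitted span from lowest to highest line was 0.54 for Mark3, 0.53 for Pak1 and 0.75 for Sdc1 on the log2 scale. In the order of line means, Mark3 ran from line 1 (127 CPM) through line 4 (97.3) and line 2 (92.1) to line 3 (87.1), and Sdc1 from line 1 (609) through line 2 (372) and line 4 (366) to line 3 (364). Pak1 ran from line 3 (80.04) through line 2 (79.0) and line 4 (74.3) to line 1 (55.2). For each of the 3, line 1 was separate from its neighbour in the order, and all other neighbours overlapped. Rac1 did not pass (adjusted p = 0.0838), though DESeq2 called it (adjusted p = 0.0063). Rab34 (adjusted p = 0.316), Mark4 (0.415), Cdc42 (0.502), Mark1 (0.894) and Mark2 (0.989) did not pass in the edgeR test. Line 1 lay apart from all 6 other libraries for 5 of the 9 genes (Mark3, Sdc1, Rac1 and Cdc42 above, Pak1 below), which is near the 50.3% of all genes. Without line 1, 65 genes differed between the lines and 0 of the 9 did, with adjusted p = 0.503 for Mark3, 0.965 for Sdc1 and 0.652 for Pak1. Without line 2 the value was adjusted p = 0.0601 for Sdc1 and 0.0544 for Pak1, and without line 3 it was 0.0636 and 0.0513, so that Mark3 alone of the 9 was called in those fits.

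Set side by side per kb of longest transcript, the regulators of uptake had higher mean levels over the 8 libraries than the MARK kinases. In line 1 this did not hold for Pak1, whose lowest library (17.7 CPM per kb) lay below the highest of Mark3 (23.7), both of that line. Cdc42 stood at 151 ± 7.99 CPM per kb (SD, n = 8 libraries), Sdc1 at 136 ± 38.1, Rac1 at 86.5 ± 9.05, Rab34 at 37.8 ± 6.77 and Pak1 at 23.5 ± 3.74. Mark2 followed at 19.6 ± 1.34, Mark3 at 18.0 ± 3.08, Mark4 at 3.64 ± 0.379 and Mark1 at 0.0668 ± 0.0293. Cdc42 and Sdc1 overlapped, as did Sdc1 and Rac1, Pak1 and Mark2, and Mark2 and Mark3, while the other neighbours in this order did not. Per kb of coding sequence the first places went to Rac1 (569 CPM per kb), Cdc42 (556) and Sdc1 (459).

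Genes that work with these 9 were taken as 8 lists, 138 genes in all, of which 127 could be tested. Within lines edgeR called 0 of the 127, with 11 higher and 5 lower with WT-USP21 at an unadjusted p under 0.05, where all 16192 genes gave 875 higher and 466 lower. Their median log2 difference was 0.011, against -0.0044 for all genes tested. Without line 1 it called 6 higher and 2 lower of these genes, where 4.57% of all genes were called. The 6 were Sdc3, Rhoq, Brsk1, Kalrn, Nuak1 and Tiam2, and the 2 were Pip5k1c and Psd4. Without line 2, 3 or 4 instead, edgeR within lines called 0 of all genes tested, these included.

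Among LKB1 and the kinases related to AMPK, to which the MARKs belong by sequence, 5 of 16 were higher with WT-USP21 in 4 of 4 lines, against 9.02% of all genes, and 2 of 16 were lower in 4 of 4 lines, against 7.73% (median log2 difference 0.021). Nuak1, a kinase of cell adhesion, stood at 9.003 ± 3.54 CPM with WT-USP21 and 4.55 ± 2.54 CPM with ED-USP21 (SD, n = 4 each), or 1.04 on the log2 scale (SE 0.15, edgeR adjusted p = 0.160, and 0.0441 with no filter on low counts). Brsk1, a polarity kinase of neurons, held 52, 88, 89 and 103 reads with WT-USP21 and 34, 2, 6 and 6 with ED-USP21 in lines 1 to 4. Its log2 difference was 3.15 (SE 0.73, adjusted p = 0.298), and without line 1 it was 4.14 (adjusted p = 0.00892). Prkaa2, a catalytic subunit of AMPK, stood at 12.6 ± 2.62 against 9.05 ± 1.10 CPM (difference of 0.46 in log2, SE 0.11, adjusted p = 0.303). DESeq2 within lines called these 3 genes higher.

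Of the 19 polarity partners and 14-3-3 genes, the latter binding sites that MARKs and atypical protein kinase C phosphorylate, 0 were called and the median log2 difference was 0.016. Pard6g, a PAR-6 scaffold, differed by 0.81 on the log2 scale (SE 0.28, edgeR adjusted p = 0.517), and the atypical protein kinase C genes Prkcz and Prkci had 0.60 (SE 0.22) and -0.12 (SE 0.06). Among 11 tested MARK substrates, 0 were called (median 0.024). Ksr1, the scaffold of the RAF-MEK-ERK cascade, stood at 40.4 ± 5.29 against 35.2 ± 3.61 CPM (difference of 0.20 in log2, SE 0.06, adjusted p = 0.429), with WT-USP21 the higher in 4 of 4 lines. For the histone deacetylase gene Hdac5 the value was -0.16 (SE 0.06), with WT-USP21 the lower in 4 of 4 lines. In each direction this was 1 of the 11, against 9.02% of all genes higher and 7.73% lower in 4 of 4 lines. For Arhgef2, a microtubule-bound exchange factor, the log2 difference was 0.11 (SE 0.06).

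Among the other syndecans, the construct values of Sdc3 differed most between line 1 and lines 2 to 4 after those of Sdc2. Sdc3, a syndecan best known from the nervous system, stood at 15.2, 14.6, 16.4 and 15.7 CPM with WT-USP21, nearly level, and at 18.1, 4.81, 6.74 and 4.505 CPM with ED-USP21. It was thus lower with ED-USP21 in lines 2, 3 and 4 and not in line 1. Its log2 difference was 1.11 over all lines (SE 0.35, edgeR adjusted p = 0.455) and 1.56 without line 1 (adjusted p = 0.00587), DESeq2 called it over all lines (adjusted p = 0.0254), and the difference between line 1 and the other lines was -1.81 (adjusted p = 0.0165). Sdc2, a low syndecan here, had 139, 96, 235 and 118 reads with WT-USP21 and 7, 76, 177 and 41 with ED-USP21, a log2 difference of 1.27 (SE 0.72, adjusted p = 0.731) that was larger in line 1 by 3.93 (adjusted p = 0.0400) and fell to 0.53 without line 1 (adjusted p = 0.479). Sdc4, the widely expressed syndecan of focal adhesions, stood at 425 ± 35.04 against 385 ± 49.9 CPM (difference of 0.15 in log2, SE 0.07, adjusted p = 0.678). Of this list of 12, which also holds glypicans and syndecan-binding adaptors, 7 could be tested and 0 were called.

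**Figure D4:**
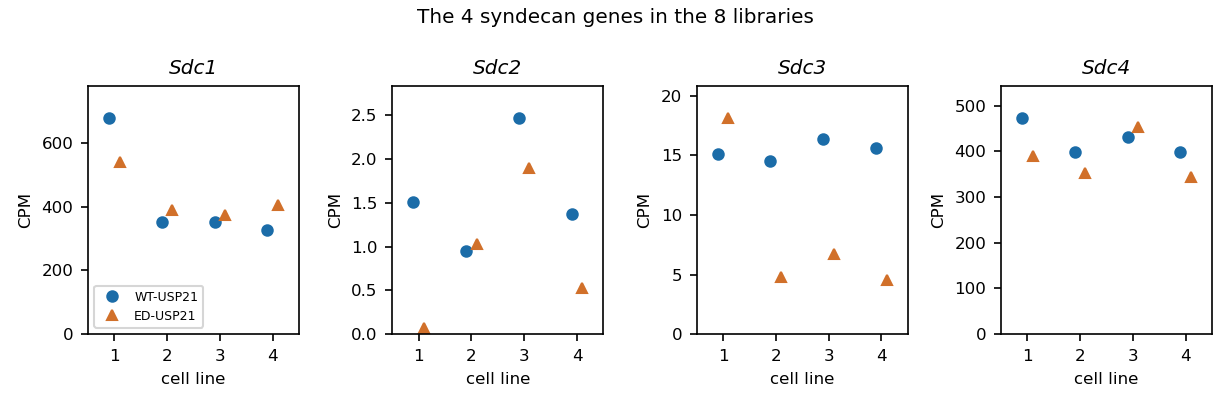
The 4 syndecan genes in cell lines 1 to 4 (vertical axes, CPM from 0, each with its own scale), 1 point per library, circles for WT-USP21 and triangles for ED-USP21. Sdc3 is low with ED-USP21 in lines 2 to 4 (4.505 to 6.74 CPM) and not in line 1 (18.1 CPM), whereas Sdc1 is slightly higher with ED-USP21 in lines 2 to 4.

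Kalrn, an exchange factor that loads Rac1 with GTP, was higher with WT-USP21 by nearly the same amount in each line (log2 0.97, 0.96, 0.90 and 1.01). It stood at 14.9 ± 8.64 against 7.63 ± 4.35 CPM, and its fitted log2 difference of 0.96 (SE 0.08) just missed the threshold (edgeR adjusted p = 0.0632). DESeq2 called it higher, as did edgeR without line 1 (adjusted p = 0.00892) and with no filter on low counts (adjusted p = 0.0138). In edgeR without line 2, 3 or 4 it was not called (adjusted p = 0.675, 0.395 and 0.392). Nor was it called without the block or with limma-trend (limma adjusted p = 0.0582). Rhoq, the Cdc42 relative TC10, stood at 18.2 ± 2.72 against 10.02 ± 5.25 CPM (difference of 0.97 in log2, SE 0.20, adjusted p = 0.278). DESeq2 called Rhoq higher (adjusted p = 0.00069), edgeR did so without line 1 (log2 1.22, adjusted p = 0.00836), and its difference was smaller in line 1 than in the other lines by 0.97 (adjusted p = 0.0480). Vav3, an exchange factor for Rac, ran the other way in 4 of 4 lines (log2 -1.30, SE 0.26, adjusted p = 0.273, and called lower by DESeq2 with adjusted p = 0.00060), at 2.05 ± 2.19 against 5.81 ± 7.34 CPM.

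The remaining lists hold the machinery of ruffles and vesicles. Of the other PAK kinases and effectors 12 were tested and 0 called (median log2 difference -0.028), with Pak4 at -0.11 (SE 0.05), the cofilin kinase gene Limk1 at -0.11 (SE 0.07) and Git2 at 0.08 (SE 0.06). Of the WAVE and Arp2/3 genes, which nucleate branched actin, 17 were tested and 0 called (median 0.0064), with Wasf1 at 1.04 (SE 0.43), Arpc5 at 0.13 (SE 0.07) and Abi2 at 0.09 (SE 0.09). Of 27 genes of macropinosome formation and maturation 0 were called (median -0.016). Psd4, an exchange factor for ARF6 linked to the placing of SDC1 at the cell surface, stood at 27.8, 16.7, 15.8 and 14.2 CPM with WT-USP21 and at 26.1, 28.02, 21.7 and 29.6 CPM with ED-USP21. It was lower with WT-USP21 in lines 2, 3 and 4 and not in line 1 (log2 -0.54, SE 0.18, edgeR adjusted p = 0.494, and -0.75 with adjusted p = 0.0244 without line 1). Rab36, the closest relative of Rab34, differed by 0.54 (SE 0.18) and the sorting nexin gene Snx1 by -0.15 (SE 0.05).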

How the data were processed

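RNA sequencing counts of 8 libraries were used, 4 lines with 2 constructs each. The authors deposited raw read counts for each gene. HTSeq, STAR, TopHat, Cufflinks and CASAVA, with build mm9, are listed in the submitters' processing notes, but versions and roles are not given in the sources used here. Of the counts, 11.4% to 20.6% fell in the row for reads in no gene; the 3 rows that name no gene were left out.

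Genes were tested with edgeR 4.0.16 (quasi-likelihood, TMM scaling, default filter on low counts; R 4.3.3) and p-values adjusted by the Benjamini-Hochberg method over 16192 genes, with a threshold of 0.05. Each SE is the size of the log2 difference divided by the root of F. Line was a block within lines, since libraries sharing a number are 1 cell line per the labels. The labels do not say whether lines are independent in origin, so p-values measure the spread between these samples. DESeq2 1.42.0, limma 3.58.1, another scaling, no filter and left-out libraries were alternatives. CPM used TMM-adjusted totals; within-line log2 differences used a prior count of 2. Lengths, overlaps and shared 50-base stretches came from GENCODE M21. Symbols are those of the deposited files; where 2 identifiers shared a symbol, that of the annotation was taken. Fits were also run on simulated counts without the wide differences between lines seen here, and the outcome is not reported here.

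Members and lists were chosen with earlier results of these data known. All 9 members are named, the 3 genes of each list with the smallest p within lines, and the 3 closest to a member whose log2 SD was at least 0.5. Tiam2 and Pip5k1c were chosen after their values were seen. The name of the transgene and the counts of 1 of the 8 lists are not reported here.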

Additional observations from a re-analysis of the deposited data

Results flagged for a closer look

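In 27 groups of 4 values (each gene with WT-USP21, with ED-USP21 and as differences within lines) 2 had 1 library far from the other 3. A rate of 1 in 20 would give 1.35 such groups, so 2 is near it. That rate is a rough guide only, since the groups share libraries. Both flags fell in line 1, which lay apart for 50.3% of all genes. Sdc1 in the WT-USP21 library of line 1 stood at 678 CPM, with the others between 328 and 353 CPM. Pak1 in the ED-USP21 library of line 1 stood at 54.2 CPM, with the others between 79.9 and 83.96 CPM.

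The 3 genes of each list with the smallest p within lines were examined in an edgeR test chosen after the data were seen. For 3 of the genes examined, the construct difference in line 1 differed from that in lines 2 to 4. The same test called 1015 of all 16192 genes (6.27%). The genes examined had been picked by p in the same libraries, so their count cannot be weighed against that share. The log2 value in line 1 minus the others was -1.81 for Sdc3 (adjusted p = 0.0165), 3.93 for Sdc2 (adjusted p = 0.0400) and -0.97 for Rhoq (adjusted p = 0.0480). Sdc2 in line 1 rests on 139 reads against 7.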

How the results depend on the processing

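Counts of called genes moved with the tool and the lines used. Without the block they were 0 in edgeR, 60 with DESeq2, 3 with limma-trend, 4 with the line as replicate block, and 0 to 383 with a library or line left out (383 without line 1, 11 without its WT-USP21 library). Within lines they were 4, against 406 with DESeq2, 58 with no filter on low counts, 0 without the block and 0 to 746 with a line left out (746 without line 1, 0 without each other line). Between lines they were 4019, against 6534 with DESeq2 and 65 to 3261 with a line left out (65 without line 1). By background label they were 0, against 7 with DESeq2 and 1015 for line 1 against lines 2 to 4. The causes were not tested.

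Under every one of these settings 0 of the 9 members were called between constructs. Between lines 3 were called, and 0 to 3 with a line left out. Within lines the log2 difference of Mark1 ran from -0.59 to 0.51 with a line left out, positive without line 1 (0.044 without the block), that of Mark2 from -0.14 to 0.0055 and that of Sdc1 from -0.18 to 0.030 (both reversals without line 4). The other 6 kept their direction under all settings. Mark1 had 8 to 42 reads per library, so its values carry the widest counting intervals of the 9.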

Other observations

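Between lines, 37 of the 127 tested genes of the 8 lists were called in edgeR (29.1%, against 24.8% of all genes tested), and 0 were called without line 1. The 6 with the smallest p, picked with these values in view, had both libraries of line 1 apart from the other 6. Pip5k1b, which makes the phospholipid PI(4,5)P2, stood at 54.8 to 55.8 CPM in line 1 and at 18.5 to 20.9 CPM in the others. The Rac exchange factor gene Tiam1 stood at 13.9 to 14.3 CPM against 1.57 to 2.55 CPM, and Prkcz at 4.73 to 9.54 CPM against 0.162 to 0.557 CPM. Kalrn lay at 14.1 to 27.8 CPM against 5.01 to 12.3 CPM. In the other direction, Pak3 stood at 0.164 to 0.196 CPM in line 1 and at 3.19 to 7.22 CPM in the others, and Nuak2 at 12.9 to 14.4 CPM against 23.2 to 36.4 CPM.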
